A study of Mus musculus with 6 samples.

Results

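The AP-1 and immediate early factors are 10 genes taken by symbol: Fos, Fosb and Fosl2 of the Fos family, Jun, Junb and Jund of the Jun family, the related leucine zipper factors Atf3 and Batf, and the immediate early response genes Ier2 and Ier3. Of the 37867 gene models in the authors' table, 9 members were found under exactly these symbols. Jund was listed under its older symbol Jund1, which the RefSeq gene table gives as a synonym, and brought the number to 10. RNA was sequenced from sorted CD4+CD8+ double-positive thymocytes, the stage at which a developing T cell is tested on its newly assembled receptor. One group was wild type and the other carried a knockout of mir181a1/b1, the genes of the microRNAs miR-181a-1 and miR-181b-1. Both were of strain C57bl6, with 3 libraries each. No treatment was labelled, and no source used here gives the age of the mice or the way the knockout was made. The sort was stated to be over 95% pure. The table held 1 FPKM value (fragments scaled to transcript length and to the number of mapped fragments) per genotype, so each level below is the authors' pooled value, no spread between the 3 libraries can be shown, and no statement on overlap of the groups is possible.

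AP-1 is a pair of basic leucine zipper proteins. Jun proteins pair with each other or with Fos proteins, whereas Fos proteins need a Jun partner to bind DNA. The pair binds the sequence TGANTCA, and in T cells it often does so beside NFAT or, in pairs with BATF, beside IRF4. Most of these genes are immediate early genes: a signal, in thymocytes chiefly one through the T cell receptor, switches them on through factors that are already present, and their mRNAs are then lost within minutes to hours. AU-rich elements in the 3′ UTR, bound by decay factors such as ZFP36, make many of these mRNAs short-lived. Jund is the steadier Jun gene and is commonly found in resting cells. miR-181 is known in the thymus for lowering several phosphatases that dampen T cell receptor signals, and the DP stage is known for its high level.

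The deleted genes encode the mature microRNAs below, printed 5′ to 3′ with the seed (bases 2 to 8) in capitals because it is the stretch that pairs with targets. Both are from RefSeq for GRCm38.p6 on the plus strand of chromosome 1, miR-181a-5p at chr1:137966468-137966490 and miR-181b-5p at chr1:137966650-137966673. The seeds are the same 7 bases, ACAUUCA. The mouse genome holds other miR-181 genes with this seed outside the deleted locus.
mmu-miR-181a-5p: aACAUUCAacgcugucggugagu
mmu-miR-181b-5p: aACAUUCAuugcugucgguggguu

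The 7-base complement of that seed, TGAATGT, was searched for on the mRNA strand of 1 reference 3′ UTR per gene (GENCODE M21, GRCm38). Of the 10 members, 1 held it: Fos, at base 600 of its 815-base 3′ UTR. The window of 30 bases is shown because it is the single miR-181 seed match among the members.
Fos 3′ UTR, bases 589 to 618, match in capitals: tcgaggtggtcTGAATGTtctgacattaac
The same letters stood in 15.3% of all 20725 coding 3′ UTRs and in 11.1% of the 3040 within 25% of the Fos length. The 6-base core GAATGT, which lies within the longer match, was also found in Fos alone of the members, against 30.6% of all 3′ UTRs. Fos was lower in the knockout, as described below, and the match is a description of letters, not a site shown to be used.

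The AU-rich letters were more common. The pentamer ATTTA was present in 8 of the 10 members, all but Batf and Ier2, against 62.7% of all coding 3′ UTRs. Per kilobase it was densest in Ier3 with 8.16 copies, followed by Fos with 4.91, Junb with 4.12 and Jun with 3.24, where the median over all genes was 1.16. The longer TATTTAT, which contains the pentamer, was present in 7 members against 26.1% of all coding 3′ UTRs. Among those of like length its share ran from 8.51% for Batf to 64.1% for Fosl2. Ier3 had 4 copies in 613 bases, Fosl2 3 copies in 4653 bases, and Fos 2 copies in 815 bases. Fosb, Jun, Jund and Atf3 each had 1. Windows of 30 bases with the heptamer in capitals are shown for Fos, which passed the test, for Jun and Jund of its partner family, and for Ier3, where it was densest. The Ier3 window has the copy at base 182 in capitals and also holds the copy at base 190, left in lower case.
Fos, bases 645 to 674: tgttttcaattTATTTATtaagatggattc
Fos, bases 669 to 698: ggattctcagaTATTTATatttttatttta
Jun, bases 1160 to 1189: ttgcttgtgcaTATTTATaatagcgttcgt
Jund, bases 276 to 305: cgattccgcccTATTTATgtttctactcgg
Ier3, bases 171 to 200: tgtctaattaaTATTTATgtatttatgtat
In Fos both copies lay shortly after the miR-181 seed match. The Jund mRNA, by far the most abundant of the 10, carried the heptamer as well, and Junb carried only 2 pentamers.

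RefSeq promoters (250 bases before the start, GRCm38.p6) were at hand for 9 members, with no entry for Ier2. The core letters TGACG of the cAMP response element, bound by CREB and ATF factors, occurred on either strand in 5 of the 9 against 17.8% of 32851 promoters: Fos, Fosb, Junb, Atf3 and Batf. The TATA letters, TATAA on the gene's strand, occurred in Fos and Ier3 against 16.0% of all promoters, and the GC box GGGCGG on either strand in 7 of the 9 against 32.7%. CCAAT on either strand was found in Jun, Junb and Ier3, against 33.8%. No member promoter held TGANTCA on either strand, against 6.75% of all, which says only that these letters are not in these windows. Promoters of the members that passed the test are shown with TGACG and TATAA in capitals, which do not overlap: Fos at chr12:85473640-85473889 on the plus strand and Junb at chr8:84978749-84978998 on the minus strand. In Fos, TGACG began at -129 and -66 and TATAA at -33 from the start. In Junb, TGACG began at -106 and no TATAA was found.
Fos: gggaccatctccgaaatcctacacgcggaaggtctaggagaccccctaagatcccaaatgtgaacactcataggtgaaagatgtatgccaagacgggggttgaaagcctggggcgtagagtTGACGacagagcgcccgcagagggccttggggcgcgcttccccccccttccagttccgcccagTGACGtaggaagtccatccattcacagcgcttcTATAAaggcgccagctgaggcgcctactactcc
Junb: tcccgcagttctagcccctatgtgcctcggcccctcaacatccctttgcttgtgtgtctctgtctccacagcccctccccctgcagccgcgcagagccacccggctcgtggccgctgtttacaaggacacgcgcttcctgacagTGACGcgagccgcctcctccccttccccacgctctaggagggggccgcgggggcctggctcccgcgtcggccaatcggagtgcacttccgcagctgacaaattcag
The Junb promoter was 66.4% G and C and that of Fos 58.4%. Both genes nevertheless shared the TGACG core near the start, and Batf held it at -98.

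Some facts of the whole table bear on every ratio below. The median log2 ratio of knockout over wild type was -0.17 over the models the authors tested, and 59.6% of them were lower in the knockout. Of the models called at q under 0.05 in the authors' deposited table, 89.6% were lower, a share that became 75.03% after centring on the median and 52.1% after a trend of the ratio with GC content and length was removed. That trend was strong: across tested coding genes the ratio fell with GC content with a Spearman rho of -0.75, described across genes of the same pooled libraries. The defining DP markers were abundant in both genotypes, Cd4 at 907 FPKM (knockout) and 732 (wild type) and Rag1 at 1193 and 1220. Where RNA was lower, fewer cells that express a gene and less RNA per cell cannot be told apart in these sorted bulk samples.

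All 10 members were listed lower in the knockout than in the wild type. Fos and Junb passed the authors' test and fell, Fos 2.98-fold and Junb 3.82-fold. Jun, Jund, Batf and Ier2 were tested and did not pass, and Fosb, Fosl2, Atf3 and Ier3 were too low to be tested. No member passed in the other direction. Thus 2 of 6 tested members were called lower, beside 15.3% of all 13834 tested models, and 0 were called higher, beside 1.79%. The median log2 ratio of the 6 was -1.43, beside -0.17 for all tested models. With the GC and length trend removed, their median was -0.38, none was called lower (background 0.879% of 9902 genes) and 1, Jund, was called higher (background 0.808%).

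**Figure D1:**
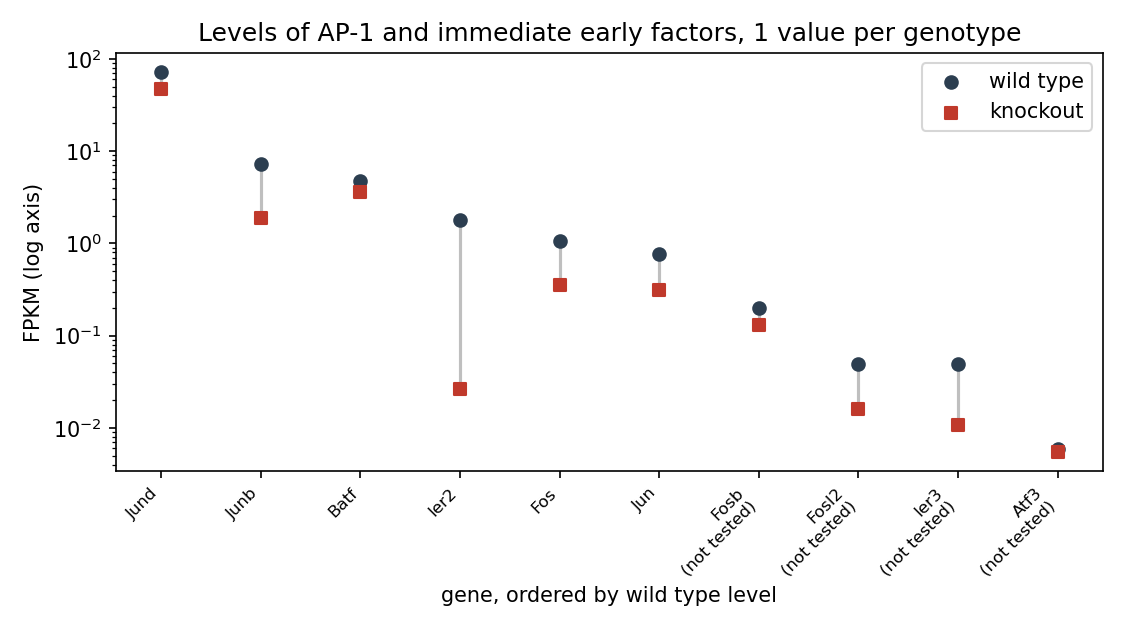
FPKM of the 10 members on a log axis, 1 pooled value per genotype, ordered by the wild type level; circles are wild type and squares knockout, joined by a line, with no error bars because single libraries were not used. Jund stands highest at 47.4 and 72.0 FPKM, all squares lie under their circles, and the 4 untested genes lie at or under 0.201 FPKM.

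The FPKM scale is per length but keeps differences from base composition and from models that share a locus. In the order of wild type levels, Jund led at 72.0 FPKM. Junb followed at 7.21, Batf at 4.77, Ier2 at 1.77, Fos at 1.06 and Jun at 0.766, and the untested genes came last, Fosb at 0.201, Fosl2 and Ier3 near 0.049 and Atf3 at 0.00588. In the knockout the order was Jund, Batf, Junb, Fos, Jun, Fosb, Ier2, Fosl2, Ier3 and Atf3, so Junb and Batf changed places and Ier2 went from the fourth to the seventh. With 1 value per genotype the spread around neighbours in this order is unknown. Most of the members were scarce: the median of their mean FPKM was 2.55 for the 6 tested, beside 7.92 for all tested models.

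Fos encodes the founding Fos protein, a signal-induced partner of Jun. Its knockout level of 0.355 FPKM was under the wild type level of 1.06. On the log2 scale the ratio was -1.57, with a standard error of 0.51 implied by the deposited statistic and a 95% interval of -2.57 to -0.58; q = 0.0157 in the authors' deposited table. A ratio as low or lower was found in 6.21% of tested models, and 12.6% of tested models had a lower mean level. The locus listed for the model, chr12:86807039-86832451 in mm9, covers 25413 bases and is shared with another model. The reference transcript has 2108 bases and 4 exons. After centring on the median of tested models the log2 ratio was -1.41 and remained past the threshold, with an adjusted p of 0.0411. With the GC and length trend removed it was -1.16 with an adjusted p of 0.318, so the call was lost while the direction stayed; a mean under 1 FPKM also placed Fos outside a filter at that level. A long noncoding model on the opposite strand by its name, linc-Fos-AS, stood at 0.00208 and 0.0237 FPKM, and without strand in the library kit its reads and those of Fos cannot be told apart where they overlap.

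Fosb, a close relative of Fos that is likewise induced by signals, was listed without a test at 0.130 FPKM (knockout) and 0.201 (wild type). Fosl2, which encodes FRA2, was listed at 0.0162 and 0.0491 FPKM, also without a test. Their log2 ratios were -0.63 and -1.60, with no error. Summed over the 3 members, the Fos family stood at 0.502 FPKM (knockout) and 1.31 (wild type), a log2 ratio of -1.38. Fos made up 70.8% of the knockout sum and 80.8% of the wild type sum, so the family's level was mostly that of Fos in both genotypes.

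Junb encodes a Jun protein that is both an immediate early factor and a brake on some c-Jun functions. It was listed, in a model shared with another transcript that has no gene name, at 1.88 FPKM (knockout) and 7.21 (wild type). Its log2 ratio of -1.93 had an implied standard error of 0.63, an interval of -3.17 to -0.70, and q = 0.0167 in the authors' deposited table. Only 3.24% of tested models had as low a ratio, and 38.4% had a lower mean level. The gene is a single exon in the listed locus chr8:87498382-87502617 (mm9). Its reference transcript has 1809 bases and 62.6% GC, in the highest GC decile of tested genes. In that decile the median log2 ratio was -1.38 and 66.8% of the genes were called lower. Junb stood at -0.25 with the trend removed, under its standard error of 0.63, and was not called; centred on the median it was -1.77 with an adjusted p of 0.0376.

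Jun encodes c-Jun, the Jun protein most closely tied to stress and growth signals through JNK. It stood at 0.316 FPKM (knockout) and 0.766 (wild type), 2.43-fold lower in the knockout. The log2 ratio of -1.28 had an implied standard error of 0.69 and q = 0.220 in the authors' deposited table, so the values are given without a call. The locus listed for the model, chr4:94708716-94836980 in mm9, covers 128265 bases and is shared with another model. Jun itself is a single exon with a reference transcript of 3189 bases. Its GC content was 55.5%, in the eighth decile, where the median log2 ratio was -0.73 and 31.8% of genes were called lower. The Jun ratio was -0.52 with the trend removed, within its standard error. A neighbouring antisense model, listed with linc-Jun-AS, was at 0.118 and 0.0975 FPKM.

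Jund encodes JunD, the Jun protein present without stimulation. It stood at 47.4 FPKM (knockout) and 72.0 (wild type), the highest of all members in both, and 92.4% of tested models had a lower mean. The knockout value was 1.52-fold lower. The log2 ratio of -0.60 had an implied standard error of 0.25 and an interval of -1.10 to -0.11; the unadjusted p was 0.0171 and q = 0.0840 in the authors' deposited table, which misses the threshold. The model lies at chr8:73205228-73229547 in mm9, and the reference transcript is a single exon of 1668 bases with 67.1% GC. Only 0.131% of tested genes had a higher GC content. Removing the trend turned Jund to 1.27, higher in the knockout, with an adjusted p of 0.000195; with the trend fitted only where the mean reached 1 FPKM it was 0.82 with an adjusted p of 0.0637. At that GC content few genes set the trend. The antisense model linc-Jund-AS was at 0.382 and 0.240 FPKM, well under Jund.

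The balance within the Jun family differed between the genotypes as listed. The 3 genes summed to 49.6 FPKM (knockout) and 80.0 (wild type), a log2 ratio of -0.69. Jund made up 95.6% of the knockout sum and 90.0% of the wild type sum, and Jun and Junb together stood at 2.20 and 7.97 FPKM. Jund exceeded Junb 25.1-fold (knockout) and 9.99-fold (wild type), and exceeded Fos 133-fold and 68.1-fold. The difference between the Jund ratio and those of Junb and Fos has no test here.

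**Figure D2:**
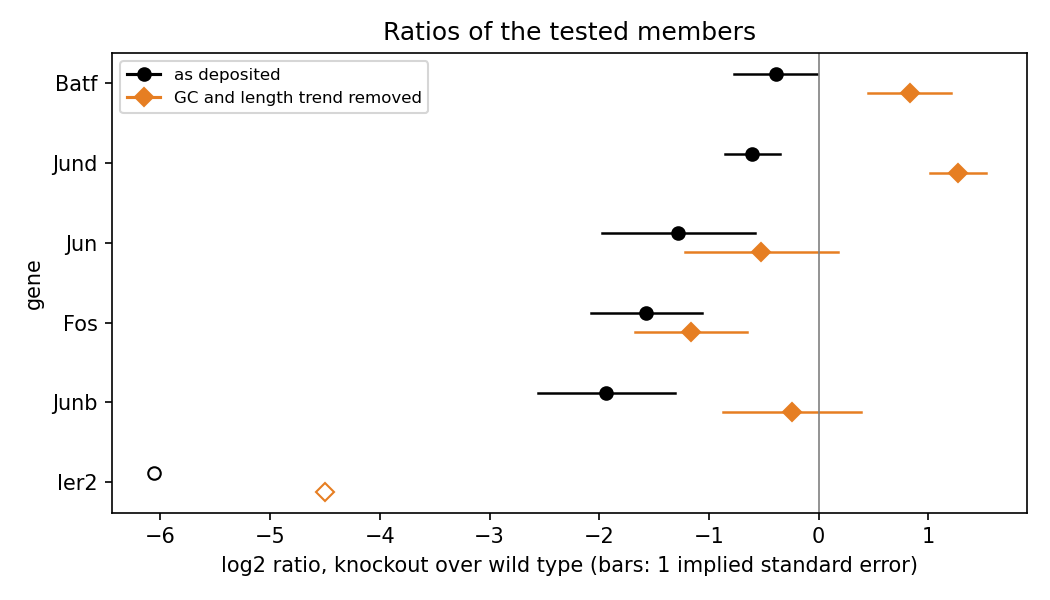
Log2 ratio of knockout over wild type (horizontal axis) for the 6 tested members, as deposited (circles) and with the GC and length trend removed (diamonds); bars are 1 standard error implied by the deposited statistic, and open symbols mark Ier2, whose standard error of 46.0 is not drawn. Junb moves from -1.93 to -0.25, Fos from -1.57 to -1.16, and Jund and Batf move to the other side of 0.

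Batf encodes a zipper protein that pairs with Jun proteins and, beside IRF4, acts in effector T cells. It was listed at 3.64 FPKM (knockout) and 4.77 (wild type), a 1.31-fold difference. Its log2 ratio of -0.39 had a standard error of 0.38, and q = 0.575 in the authors' deposited table, so the difference was within about 1 standard error. The model lies at chr12:87027669-87050037 in mm9, with a 3-exon reference transcript of 955 bases and 56.6% GC, in the ninth decile, where the median log2 ratio was -0.95. Batf turned to 0.83 with the trend removed, higher in the knockout, with an adjusted p of 0.362. Irf4, the partner of BATF on composite sites, rose from 0.884 FPKM in the wild type to 2.14, with q = 0.0196 in the authors' deposited table, and was not called with the trend removed (1.24, adjusted p = 0.111). Atf3, a stress-induced zipper factor, was listed at 0.00549 and 0.00588 FPKM and was not tested. That is the lowest level of the 10 in both genotypes, and its log2 ratio of -0.10 changed sign with centring, to 0.07.

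Ier2 encodes a small nuclear protein induced together with Fos. It showed the widest difference in listed values and the least certain one: 0.0265 FPKM (knockout) and 1.77 (wild type), 66.8-fold apart. Just 0.0798% of tested models had as low a log2 ratio as its -6.06, yet the implied standard error was 46.0 and q = 0.975 in the authors' deposited table. The interval of -96.3 to 84.2 leaves the direction undetermined. At the same locus (chr8:87176547-87211734 in mm9, a span of 35188 bases around a single-exon gene), the model listed with linc-Ier2-AS was at 3.00 and 10.9 FPKM, above Ier2 in both genotypes, with a log2 ratio of -1.86, a standard error of 1.65 and q = 0.529 in the authors' deposited table. Btbd14b, a transcriptional repressor gene also known as Nacc1 and listed at the same locus, fell from 34.0 to 18.7 FPKM, with q = 0.0206 in the authors' deposited table. No source used here says whether these models overlap or how fragments were split between them, so the Ier2 value is uncertain. Ier3, an early gene linked to survival after stress, was listed at 0.0107 and 0.0488 FPKM and was not tested; its log2 ratio was -2.19.

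GC content moved with these ratios. From the lowest to the highest GC decile of tested genes the median ratio went from 0.29 to -1.38 on the log2 scale, and the share of genes called lower rose from 0.202% to 66.8%. None of the 6 tested members was in the lower 5 deciles: Fos was in the sixth, Jun in the eighth, Batf in the ninth, and Junb, Jund and Ier2 in the highest. Fos lay furthest from the median of its own decile among the members other than Ier2, at -1.57 against -0.31, in a decile where 8.59% of genes were called lower. In the highest decile, with a median of -1.38, Junb stood under it at -1.93 and Jund above it at -0.60. The part of base composition in these values was not tested.

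**Figure D3:**
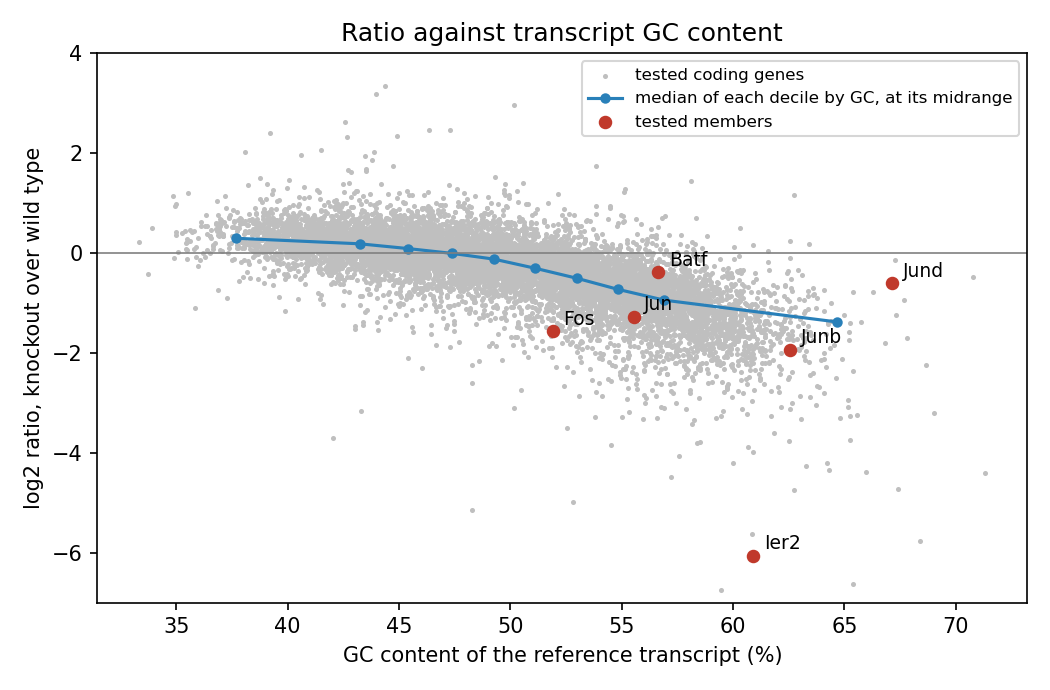
Log2 ratio of knockout over wild type against the GC content of the reference transcript (%) for 9901 tested coding genes (grey points, 1 gene outside the plotted range), with the median of each GC decile (line) and the 6 tested members (large points). The medians fall from 0.29 to -1.38; Fos, Junb, Jun and Ier2 lie under the line, and Batf and Jund above it.

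The related lists, members left out, are read against all tested models, of which 15.3% were called lower and 1.79% higher, with a median log2 ratio of -0.17. Of 51 other immediate early genes found, 41 were tested, 14 were called lower (34.1%) and 2 higher, with a median log2 ratio of -0.29. Id3, an inhibitor of E proteins induced by receptor signals, fell from 40.5 to 6.57 FPKM (q = 9.46e-11 in the authors' deposited table). It was still lower with the trend removed, at -1.66 with an adjusted p of 0.000953. Nfkbia, the NF-κB inhibitor, fell from 96.1 to 38.9 FPKM, and Sik1, a kinase that restrains CREB coactivators, from 2.61 to 0.927; neither was called with the trend removed. Klf6, a zinc finger factor, rose from 15.7 to 29.5 FPKM, with q = 0.00183 in the authors' deposited table, and was not called with the trend removed. Egr1, the reference receptor-induced factor, was lower at q = 0.0423 in the authors' deposited table, and turned to 0.29 with the trend removed. After trend removal 1 of these genes was called lower, Id3, and 1 higher, Zfp36l2, and their median was 0.05.

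Upstream of the members, the factors at serum response and cAMP response elements had 18 genes tested, 4 called lower (22.2%, beside 15.3% of all tested models) and 0 higher, with a median of -0.21. Srf, the factor that binds the serum response element of Fos, fell from 16.6 to 8.33 FPKM (q = 0.00241 in the authors' deposited table). Crtc1, a CREB coactivator, fell from 6.48 to 2.27 and Mef2d, which binds many early gene promoters, from 104 to 45.8 FPKM. Creb1 itself, at 40.5 and 29.8 FPKM, was not called. None of the 18 was called in either direction with the trend removed, where their median was 0.21 and Srf stood at 0.76, higher in the knockout.

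Of 28 tested MAP kinases and their substrates that lead to AP-1, 6 were called lower (21.4%, beside 15.3% of all tested models) and 1 higher, with a median of -0.10, near that of all tested models. Map2k2, which encodes MEK2, fell from 27.2 to 5.21 FPKM (q = 7.82e-10 in the authors' deposited table). Map3k11, an activator of JNK, fell from 18.6 to 4.05 FPKM (q = 4.06e-11 in the authors' deposited table). Rps6ka3, encoding the kinase RSK2, rose from 33.3 to 56.9 FPKM. Mapk8, encoding JNK1, which phosphorylates c-Jun, stood at 24.1 and 23.7 FPKM and was not called. None of the 28 was called with the trend removed.

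Other zipper factors and regulators were mixed. Of 27 tested bZIP factors outside the members, 3 were called lower (11.1%, under the 15.3% of all tested models) and none higher, with a median of -0.19: Atf6b fell from 23.1 to 7.41 FPKM, Maff from 3.04 to 1.19 and Mafk from 13.3 to 6.93. None of these 3 was called with the trend removed, and 1 other, Dbp, was called higher at 1.41. Among 21 tested partners and regulators of AP-1 proteins, 6 were called lower (28.6%, beside 15.3% of all tested models) and 1, Irf4, higher, with a median of -0.27. Rack1, a scaffold for kinases, fell from 559 to 206 FPKM and was still called with the trend removed, at -1.05 with an adjusted p of 0.00214. Rnf187, an E3 ligase known as a c-Jun coactivator, fell from 54.4 to 16.7 FPKM and Men1, which binds JunD, from 41.8 to 19.7; neither was called with the trend removed.

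Of 18 tested factors that act on AU-rich mRNAs, 1 was called lower (5.56%, beside 15.3% of all tested models) and 0 higher, and the median was 0.14. That 1 was Zfp36, which encodes tristetraprolin and fell from 75.3 to 41.9 FPKM (q = 0.00553 in the authors' deposited table); it was not called with the trend removed. Its relative Zfp36l2 stood at 29.8 FPKM (knockout) and 19.8 (wild type), not called as deposited, and was called higher with the trend removed. The genes listed as AP-1 responsive in T cells had 12 tested, 2 called lower (16.7%, near the 15.3% of all tested models) and 1 higher, with a median of -0.32. Il2ra, the interleukin 2 receptor alpha chain, rose from 2.89 to 29.4 FPKM, a log2 ratio of 3.35, and held at 3.19 with the trend removed. Ccnd3, a G1 cyclin, fell from 355 to 118 FPKM and Hmox1, heme oxygenase, from 0.854 to 0.290; neither was called with the trend removed.

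**Figure D4:**
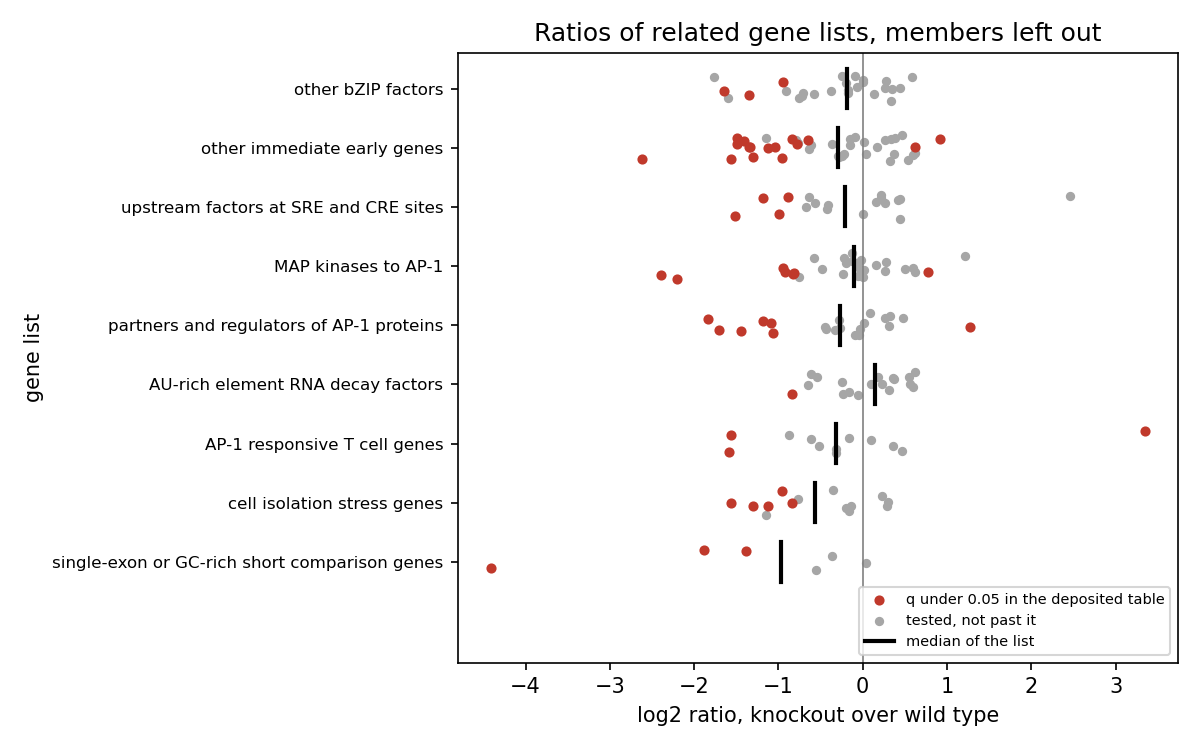
Log2 ratio of knockout over wild type (horizontal axis) for the tested genes of 9 related lists, members left out; each point is a gene, red where the q in the authors' deposited table was under 0.05, and the black bar is the list's median. Called genes lie mostly on the lower side, 39 of 44 distinct genes over all lists. That share is near the one over all tested models, where 2120 of 2367 calls (89.6%) were lower. Genes listed at 0 in a genotype, such as Sox4, are not drawn.

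Lists that are not about AP-1 were set beside Fos and Junb. Of 14 tested genes known to respond to cell isolation, 5 were called lower (35.7%, beside 15.3% of all tested models) and 0 higher, with a median of -0.56, and 4 of these 5 are also in the immediate early list; the other, Ubb, fell from 701 to 236 FPKM. With the trend removed the median was -0.02 and 1 gene, Ubb, was called lower. Of 7 tested single-exon or GC-rich short genes chosen for comparison, 4 were called lower (57.1%, beside 15.3% of all tested models) and none higher, with a median of -0.97 over those with a value above 0 in both genotypes: Sox4, listed at 0 (knockout) and 30.1 FPKM (wild type), H1fx, Socs1 and Arl4d. With the trend removed, which gives Sox4 no value, their median was -0.08 and H1fx alone was called lower. Macrophage or dendritic markers, cells in which Fos and Junb are also expressed, summed to 4.50 FPKM (knockout) and 9.13 (wild type) over 9 genes, none at 0. Of these, 2 of 5 tested, Itgam and C1qb, were called lower as deposited. After centring C1qb was still called lower and Itgam was not, and neither was called with the trend removed. The erythroid markers summed to 0.883 and 2.29 FPKM. Among them 1 of 2 tested, Hba-a2 at 0.213 and 0.948, was called lower as deposited and after centring, and not with the trend removed. The neutrophil markers summed to 1.38 and 1.48, and the B cell marker Cd79b stood at 15.7 and 20.1, with no tested gene of either list called. The 8 stromal markers summed to 52.5 and 57.9 FPKM, nearly all of it from Pecam1 at 51.5 and 55.5, with 1, Foxn1, at 0 in the knockout. Of the 2 tested, Pecam1 was not called. Epcam, at 0.932 and 2.30 FPKM, was called lower as deposited and after centring, and not with the trend removed. The part of cell isolation, of exon structure and of these other cells in the values of Fos and Junb was not tested.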

How the data were processed

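RNA from 6 libraries, 3 per genotype, was made into TruSeq libraries after extraction with Trizol or a column kit, per the labels' protocols; which library had which extraction is not given. The submitters' processing notes name TopHat2 and mm9, without versions. No source used here gives the counting tool, the annotation or the treatment of shared reads. Per the file headers, the deposited table held FPKM, 1 value for each genotype, with the authors' log2 ratio, test statistic (a score), p-value and q-value. Of 37867 models, 13834 were tested; adjusting the deposited p-values by Benjamini-Hochberg over these gave the deposited q-values (largest difference 1.89e-06). The authors pooled the libraries, so depth and replicate spread were not used here, whether the libraries are separate mice is not stated, and precision rests on the deposited statistic.

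Ratios were turned to knockout over wild type, and a call is the authors' q under 0.05. The implied standard error is the log2 ratio over the test statistic (median 0.35). The GC and length trend was a robust regression on cubic splines with 5 pieces over 9902 tested coding genes, using 1 GENCODE M21 transcript each. Transcripts longer than 1.2 times the listed locus of their model, 79 of them, were left out. Residuals over the implied standard error were adjusted by Benjamini-Hochberg (statsmodels 0.14.6, Python 3.11.15). No coordinates were converted between builds. Members, lists and tests were chosen with earlier results of these data known. Named genes are all members, up to 3 called genes per direction of each list by smallest p (without calls, the 3 highest), Egr1, and list extremes; Arl4d, Dbp, Zfp36l2, Mapk8, Foxn1, Pecam1, the DP markers and the locus neighbours were named after their values were seen. The lists share some genes. Centring, other thresholds, pseudocounts, scalings and filters were alternatives.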

Additional observations from a re-analysis of the deposited data

How the results depend on the processing

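Of the members, 2 were called lower as reported, 0 at q under 0.01, 0 with the GC and length trend removed (with Jund then higher), 0 with that trend fitted at a mean of at least 1 FPKM, an alternative chosen after seeing the data, and 1 of 3 tested, Junb, at a mean of at least 1 FPKM. For q under 0.01 and for the filter at 1 FPKM, the share of all tested models is not given here, so those counts have no background. Members lower in the knockout numbered 10 of 10 as reported, and so all 6 of the tested ones. The 4 untested members have no value with a trend removed. Of the 6 tested, 4 were lower with either trend removed: Jund turned to 1.27 and 0.82, and Batf to 0.83 and 0.81. Atf3, untested, turned to 0.07 with centring. With a pseudocount of 1 FPKM the Fos ratio was -0.60, which understates low genes. Over all lists 44 of 172 genes were called, beside 2367 of all 13834 tested models, and 7 of 166 under each trend fit, beside 167 of 9902 with the trend over all genes removed; why the calls were lost was not tested. No paired analysis was possible because the table holds 1 value per genotype pooled over the libraries, and leaving out a library could not be run for the same reason. Levels under 1 FPKM limit what can be said of Fos, Jun, Fosb, Fosl2, Atf3, Ier2 and Ier3.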
